A study of Mus musculus with 6 samples.

Results

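The genes described here are 35 interferon-stimulated genes, chosen by name, and each was found as a single row among the 26699 genes of the files. They were measured by RNA sequencing in primary mouse bone marrow macrophages of 2 genotypes, with 3 libraries per genotype. Cells of both genotypes came from mice aged 8 weeks, were expanded with M-CSF at 10 ng/mL to obtain macrophages, and were then kept for 48 hours in 30 ng/mL M-CSF with RANKL, which directs them towards osteoclasts, at 50 ng/mL. Control cells were Slc11a2 flox/flox, with loxP sites around part of the gene for the iron transporter DMT1 and no Cre recombinase. Knockout cells were LysmCre-Slc11a2 flox/flox (cKO), in which the lysozyme M promoter, active in the myeloid lineage, drives Cre. The controls carry no Cre, so the presence of Cre and the loss of Slc11a2 cannot be told apart in these data. The sources used here do not say if the libraries stand for separate mice or cultures, so the p-values measure library-to-library spread, part of which may be technical.

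Interferon-stimulated genes form the cell's antiviral program. Type I interferons bind the receptor IFNAR1/IFNAR2, the kinases JAK1 and TYK2 phosphorylate STAT proteins, among them STAT2, which acts with IRF9 in a complex that binds the interferon-stimulated response element in promoters. The products sense foreign nucleic acid, degrade or sequester viral RNA, modify proteins and recruit lymphocytes, and in macrophages a low tonic interferon signal keeps many of these genes on. During osteoclast formation RANKL is known to induce interferon beta, which restrains differentiation.

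Total counts per library were between 49720701 and 57797282, and 1 read was worth 0.0173 to 0.0201 CPM (counts scaled to a common library total). Slc11a2 itself fell from 115.5 ± 5.09 CPM (SD, n = 3) to 82.9 ± 4.56 CPM (SD, n = 3), a log2 fold change of -0.48 ± 0.06 (SE; edgeR quasi-likelihood test with Benjamini-Hochberg adjustment, adjusted p = 0.00219). Reads are summed over the whole gene, and the sources used here do not name the exons between the loxP sites, so this count does not measure the deletion alone. Lyz2, the gene whose promoter drives Cre, fell by 1.14 on the log2 scale (edgeR, adjusted p = 9.39e-06). Macrophage markers summed to 7300 to 7840 CPM in the controls and 7010 to 7520 CPM in the cKO. The corresponding osteoclast sums were 11800 to 15300 CPM and 8530 to 12200 CPM. Of 8 macrophage and 10 osteoclast markers 0 were called by edgeR, against 2.42% of all genes tested. An unadjusted p below 0.05 was found for 2 and 3 of them (edgeR), against 17.2% of all genes.

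None of the 35 interferon-stimulated genes differed between the genotypes by the test, 0 higher and 0 lower in the cKO. The same edgeR test called 407 of 16843 genes, or 2.42%, at an adjusted p below 0.05, with 1.36% higher and 1.06% lower in the cKO. One of the members, Stat2, had an unadjusted p below 0.05, against 17.2% of all genes tested. DESeq2 and limma-voom called 0 members as well, with 3 of the 35 members each at an unadjusted p below 0.05. Over all genes, 2825 of 26692 were below that level with DESeq2 and 3591 of 16843 with limma-voom. Log2 fold changes (cKO minus control) ran from -0.29 for Ifit3b to 0.38 for Ifi44, with a median of 0.045 against 0.001 for all genes, and 23 were above 0 and 12 below. In bulk RNA, fewer expressing cells and less RNA per cell cannot be told apart.

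The members' levels differed more between libraries of 1 genotype than between the genotypes. The mean level of the set, computed as the average over members of log2 CPM minus each gene's own mean over the 6 libraries, was -0.65, 0.53 and -0.08 in control replicates 1, 2 and 3. It was 0.34, -0.23 and 0.09 in cKO replicates 1, 2 and 3. Control replicate 1 was thus the lowest of the 6 libraries and control replicate 2 the highest, with all 3 cKO libraries between them. The genotype means, -0.07 ± 0.59 (SD, n = 3) and 0.07 ± 0.29 (SD, n = 3), differed by 0.14 on the log2 scale, less than the SD of the controls. The distance between the extreme control libraries was 1.18 on that scale, and 0.58 between the extreme cKO libraries. Without control replicate 2 the difference became 0.43, and without control replicate 1 it became -0.16.

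**Figure D1:**
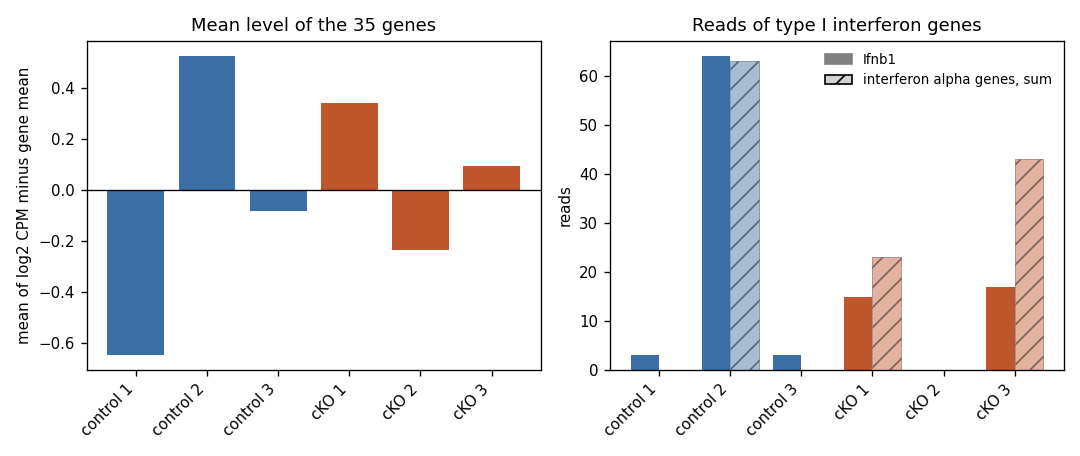
Left, mean level of the 35 interferon-stimulated genes in each library (mean over genes of log2 CPM minus the gene's mean over 6 libraries; blue, control; orange, cKO), lowest in control 1 at -0.65 and highest in control 2 at 0.53. Right, reads of Ifnb1 (solid) and of 12 interferon alpha genes summed (hatched) in the same libraries, highest in control 2 at 64 and 63 reads.

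The members shared this pattern gene by gene. Control replicate 1 was the lowest of the 6 libraries for 30 of the 35 genes (85.7%, against 17.9% of all genes tested), and control replicate 2 was the highest for 22 (62.9%, against 14.2%). Both held for 19 members, or 54.3%, and for 2.84% of all genes. The most frequent full order, found for 7 members, was control replicate 2, cKO replicate 1, cKO replicate 3, control replicate 3, cKO replicate 2 and control replicate 1, from high to low. All 3 cKO libraries lay within the range of the 3 controls for 21 members (60%), against 14.1% of all genes. The libraries of the genotypes did not overlap for 1 member, Ifi35, or 2.86%, against 22.5% of all genes.

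The control libraries were also the more variable ones for these genes. The median SD of log2 CPM over the members was 0.36 in the controls and 0.19 in the cKO, while over all genes tested it was 0.14 and 0.15. The SD was higher in the controls than in the cKO for 29 of the 35 (82.9%), against 49% of all genes. The highest control library was at least 2-fold above the lowest for 16 of the 35 members, and the highest cKO library for 9. Over the 16843 genes tested these counts were 2175 and 1981. These counts describe the 3 libraries of each genotype, and no test of the difference in spread was made.

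**Figure D2:**
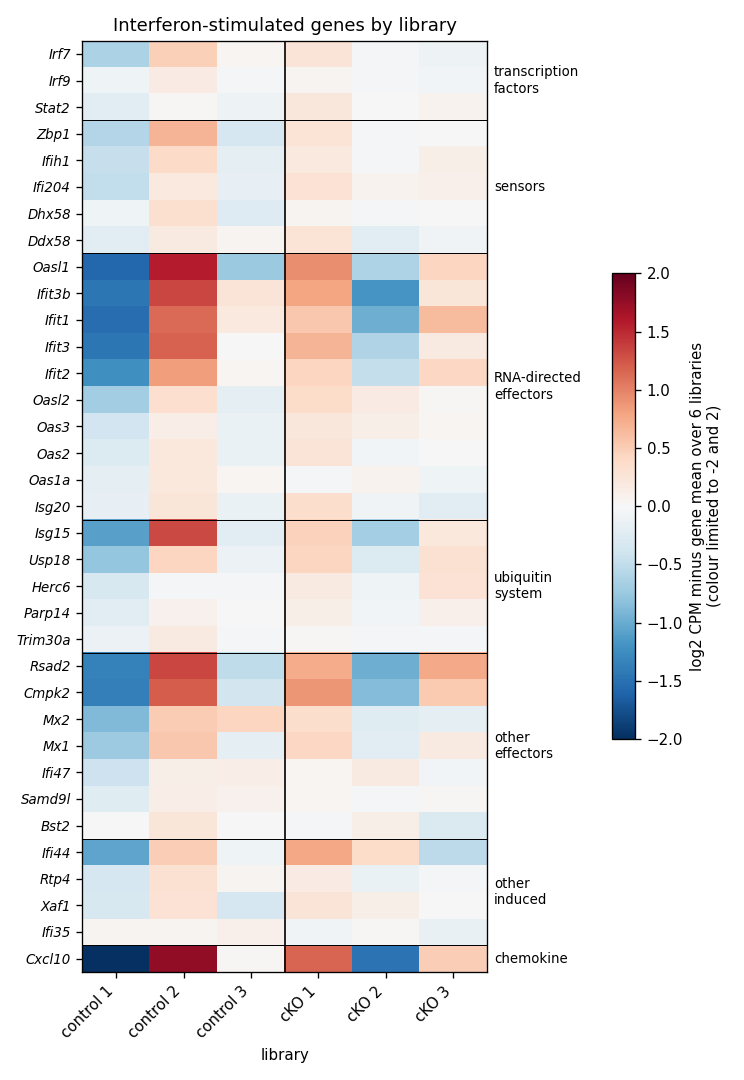
Each row is a gene and each column a library; colour is log2 CPM minus the gene's mean over the 6 libraries, limited to -2 and 2, with genes grouped by role and the genotypes separated by the vertical line. Control 1 is lowest in 30 rows and control 2 is highest in 22. The group labelled ubiquitin system also holds Parp14, an ADP-ribosyltransferase.

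By how far the control libraries stood apart, the members ranged from 1.03 (Ifi35) to 13.6 (Cxcl10), as the ratio of the highest to the lowest control CPM. The ratio was at least 4 for 9 genes: Cxcl10, Oasl1, Ifit3b, Rsad2, Ifit1, Ifit3, Cmpk2, Isg15 and Ifit2. It lay between 2.06 and 2.92 for Irf7, Zbp1, Oasl2, Usp18, Mx1, Mx2 and Ifi44, and between 1.03 and 1.8 for the other 19. These boundaries were chosen after the values were seen, so the classes are a description. The widest class holds none of the transcription factors or sensors of the set. Among the 13231 genes with at least 1 CPM and at least 3 reads in each control, 70 (0.529%) had a control ratio of at least 4, and 26 of these were highest in control replicate 2 and lowest in control replicate 1. The 9 members are among those 26.

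**Figure D3:**
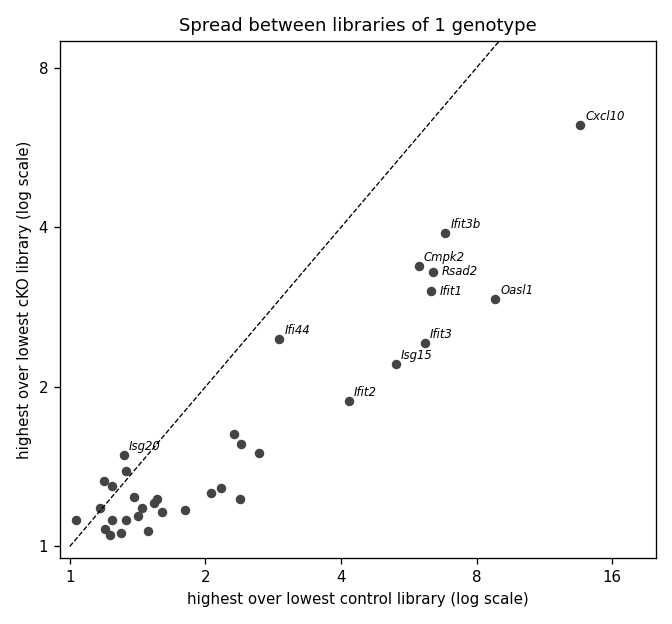
Ratio of the highest to the lowest library within the controls (horizontal, log scale) and within the cKO (vertical, log scale) for the 35 genes; the dashed line marks equal ratios. The labelled genes at the right are the 9 with a control ratio of at least 4, all of them below the line.

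Promoter sequence from RefSeq (GRCm38.p6; 250 bases before to 50 after each start) was matched for 26 of the 35 genes. The core of the interferon-stimulated response element was searched as GAAANNGAAA on both strands, where overlapping matches count separately. It was present for 13 of the 26 (50%), against 3.99% of 27025 genes with a promoter in the table. A gamma-activated site, searched as TTCNNNGAA, which reads alike on both strands, was present for 5 members (19.2%) and for 9.55% of all genes. Windows of 60 bases around the core follow for 5 genes with a wide control range and for 3 with a narrow one, because both kinds carry it. They read 5′ to 3′ along the gene's strand, with the matched letters in capitals (TTTCNNTTTC is the match on the opposite strand).
Cxcl10: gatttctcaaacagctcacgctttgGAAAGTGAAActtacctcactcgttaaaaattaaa
Rsad2: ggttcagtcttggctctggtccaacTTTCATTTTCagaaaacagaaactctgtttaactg
Isg15: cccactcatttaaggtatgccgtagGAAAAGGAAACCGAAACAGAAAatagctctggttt
Ifit1: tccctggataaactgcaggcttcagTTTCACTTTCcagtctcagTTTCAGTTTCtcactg
Ifit3: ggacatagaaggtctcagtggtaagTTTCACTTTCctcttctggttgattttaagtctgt
Stat2: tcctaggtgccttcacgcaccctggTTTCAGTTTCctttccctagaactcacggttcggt
Oas3: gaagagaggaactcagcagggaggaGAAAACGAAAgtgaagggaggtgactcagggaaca
Bst2: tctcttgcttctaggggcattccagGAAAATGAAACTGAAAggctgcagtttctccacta

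Those windows lie at chr5:92349068-92349127 (minus strand) for Cxcl10, chr12:26456538-26456597 (minus) for Rsad2 and chr4:156200862-156200921 (minus) for Isg15. Ifit1 is shown at chr19:34640760-34640819 (plus) and Ifit3 at chr19:34583348-34583407 (plus). For the narrow class they are chr10:128270251-128270310 (plus) for Stat2, chr5:120777700-120777759 (minus) for Oas3 and chr8:71537568-71537627 (minus) for Bst2. Isg15 carries 3 overlapping cores in its window, Ifit1 has 2 separate ones and Bst2 has 2 that overlap. The window of Ifit3b, a near copy of Ifit3 on the same chromosome, is identical to that of Ifit3. Both genes have 2 cores, and the later one runs beyond the window and is not in capitals. By class, 6 of 9 genes with a control ratio of at least 4 held the core in the promoter, and 7 of the 17 others with a promoter in the table. A match is a run of letters and not a measured binding site.

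The chemokine Cxcl10, which recruits activated T cells, had the widest values of the set. Its level was 1.42, 19.4 and 5.72 CPM in control replicates 1 to 3, and 12.7, 2.04 and 7.99 CPM in cKO replicates 1 to 3. The cKO libraries fall inside the control range. The log2 fold change was -0.23 ± 1.19 (SE), with a 95% interval from -3.46 to 3.00 (edgeR with Benjamini-Hochberg adjustment, adjusted p = 0.95).

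Isg15 encodes the ubiquitin-like protein that is attached to other proteins in infected cells. It measured 2.23, 11.8 and 4.06 CPM in the controls and 6.49, 2.94 and 5.46 CPM in the cKO, the same order as the set's mean level and with the cKO inside the control range. Usp18, the protease that removes ISG15 and also dampens the interferon receptor, was at 3.02, 6.96 and 4.76 CPM against 6.99, 4.28 and 6.40 CPM. For both genes control replicate 1 was the lowest library. Their log2 fold changes were -0.29 ± 0.73 and 0.26 ± 0.30 (SE; edgeR with Benjamini-Hochberg adjustment, adjusted p = 0.891 and 0.717). Herc6, the mouse ligase for ISG15, had 15.7, 19.2 and 19.5 CPM in the controls and 22.4, 18.5 and 24.0 CPM in the cKO, with cKO replicate 2 among the controls (edgeR, adjusted p = 0.296). Parp14, an ADP-ribosyltransferase of macrophages, was at 163.9, 203.8 and 190.4 CPM and then 208.3, 186.0 and 206.3 CPM. It has overlapping ranges and a log2 fold change of 0.11 ± 0.08 (SE; edgeR, adjusted p = 0.552). Trim30a, grouped with these genes here, had a log2 fold change of -0.03 ± 0.08 (SE).

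**Figure D4:**
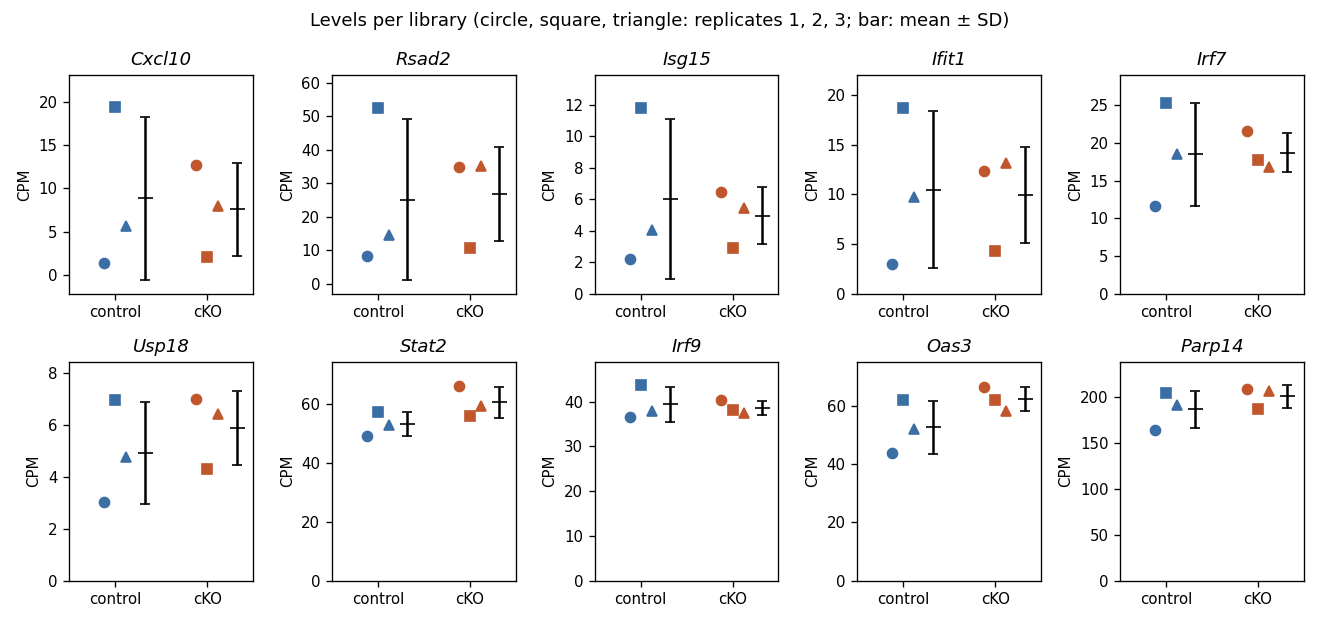
CPM of 10 members in each library (linear axis; circle, square and triangle are replicates 1, 2 and 3; the bar is the mean ± SD, n = 3). In the upper row from Cxcl10 to Irf7 the cKO libraries lie inside the control range, whereas Stat2 spans 49.1 to 57.3 CPM in the controls and 56.0 to 66.2 CPM in the cKO.

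The 3 transcription factors of the set had control ratios of 1.17 for Stat2, 1.2 for Irf9 and 2.17 for Irf7. Stat2, the signal transducer specific to type I and III interferon, was at 49.1, 57.3 and 52.9 CPM in the controls and 66.2, 56.0 and 59.3 CPM in the cKO. The ranges overlap through cKO replicate 2. Its log2 fold change of 0.19 ± 0.08 (SE; 95% interval 0.02 to 0.36; edgeR, adjusted p = 0.25) was the one with the smallest p of the set and did not pass. Irf9, the DNA-binding partner of STAT2, was at 36.5, 43.8 and 37.8 CPM against 40.4, 38.1 and 37.4 CPM, with all cKO values inside the control range. Irf7, which amplifies interferon alpha production, measured 11.7, 25.3 and 18.6 CPM against 21.7, 17.8 and 16.8 CPM, again inside it. For Irf9 and Irf7 the log2 fold changes were -0.03 ± 0.08 and 0.02 ± 0.28 (SE; edgeR with Benjamini-Hochberg adjustment, adjusted p = 0.898 and 0.986).

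Of the 5 nucleic acid sensors, 0 passed the test. Ifi204, a DNA-sensing protein of the HIN-200 family, was at 50.9, 81.5 and 63.4 CPM in the controls and 87.1, 75.0 and 76.5 CPM in the cKO. Control replicate 2 stood among the cKO libraries, and the log2 fold change was 0.29 ± 0.17 (SE; edgeR, adjusted p = 0.47). The RNA helicases Ifih1 (MDA5), Ddx58 (RIG-I) and Dhx58 (LGP2) had log2 fold changes of 0.13 ± 0.23, 0.00 ± 0.15 and 0.00 ± 0.14 (SE). Zbp1, a sensor of Z-form nucleic acid, had 0.06 ± 0.31. Their control ranges were narrower than those of the widest effectors, with ratios of 1.33 for Ddx58 to 2.39 for Zbp1.

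The RNA-directed effectors split by family in how far the libraries stood apart. The 4 Ifit genes, whose products bind foreign RNA or its partners, lie together on chromosome 19 (34550694 to 34650009, mm10), and all had control ratios of at least 4.17. Ifit1, chosen for its values after they were seen, was at 2.96, 18.8 and 9.78 CPM in the controls and 12.4, 4.35 and 13.2 CPM in the cKO. The Ifit genes' log2 fold changes were between -0.29 ± 0.87 for Ifit3b and 0.07 ± 0.62 for Ifit2 (SE). How reads shared by Ifit3 and Ifit3b were counted is unknown, so their separate values are uncertain.

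The oligoadenylate synthetases, which activate RNase L, had small ranges in contrast. Oas3 was at 43.7, 62.1 and 51.9 CPM in the controls and 66.4, 61.9 and 58.1 CPM in the cKO, with control replicate 2 among the cKO. Its log2 fold change was 0.24 ± 0.11 (SE; edgeR, adjusted p = 0.32). Oas2 measured 34.0, 47.3 and 37.4 CPM against 48.8, 39.5 and 41.2 CPM, with overlapping ranges (0.13 ± 0.13 SE; edgeR, adjusted p = 0.669). Oas1a, which has close paralogs beside it and is uncertain for that reason, had a log2 fold change of -0.05 ± 0.10 (SE). The relatives Oasl1 and Oasl2 lie side by side on chromosome 5 but differed in spread: the control ratio was 8.80 for Oasl1 and 2.06 for Oasl2. Oasl2 was at 28.1, 57.8 and 39.6 CPM in the controls and 58.7, 50.9 and 46.5 CPM in the cKO, overlapping, at 0.31 ± 0.29 (SE; edgeR, adjusted p = 0.662). The exonuclease Isg20 had a control ratio of 1.32 and was one of the members with a wider cKO range, 1.49.

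Among the other effectors, Rsad2 (viperin, a radical SAM enzyme that makes a chain-terminating nucleotide) and Cmpk2 (a nucleotide kinase) are neighbours on chromosome 12, 12751 bases apart. Rsad2, chosen after its values were seen, was at 8.21, 52.6 and 14.7 CPM in the controls and 34.8, 10.7 and 35.2 CPM in the cKO. Cmpk2, likewise chosen after its values were seen, followed it, at 3.96, 23.6 and 7.95 CPM and then 18.9, 5.58 and 14.7 CPM. Control replicate 2 was highest and control replicate 1 lowest for both, with cKO replicate 2 the low one of its genotype. Their log2 fold changes were 0.09 ± 0.93 and 0.14 ± 0.87 (SE). The dynamin-like GTPases Mx1 and Mx2 had control ratios of 2.40 and 2.63 and log2 fold changes of 0.17 ± 0.30 and -0.15 ± 0.35 (SE).

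Bst2 (tetherin), which holds budding virions at the cell surface, departed from the common order. It was at 34.1, 40.7 and 34.1 CPM in the controls and 33.6, 37.3 and 28.1 CPM in the cKO, so that the lowest library was cKO replicate 3. The ranges overlap (log2 fold change -0.14 ± 0.11 SE; edgeR, adjusted p = 0.572). Samd9l and the immunity-related GTPase Ifi47 had log2 fold changes of 0.01 ± 0.09 and 0.09 ± 0.15 (SE).

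The 4 other induced proteins included the members with the highest log2 fold change and with the narrowest control range. Ifi44 was at 0.961, 2.81 and 1.88 CPM in the controls and 3.41, 2.58 and 1.39 CPM in the cKO, overlapping, with 0.38 ± 0.41 (SE; edgeR, adjusted p = 0.699). Xaf1, an inducible partner of the apoptosis inhibitor XIAP, was at 6.76, 10.4 and 6.71 CPM against 10.1, 9.2 and 8.37 CPM, all cKO values inside the control range (0.21 ± 0.17 SE; edgeR, adjusted p = 0.586). Ifi35 was the member whose genotypes did not overlap, at 11.8, 11.9 and 12.2 CPM in the controls and 10.8, 11.6 and 10.3 CPM in the cKO. Its log2 fold change was -0.13 ± 0.11 (SE; edgeR, adjusted p = 0.587). Rtp4 had -0.03 ± 0.15 (SE).

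**Figure D5:**
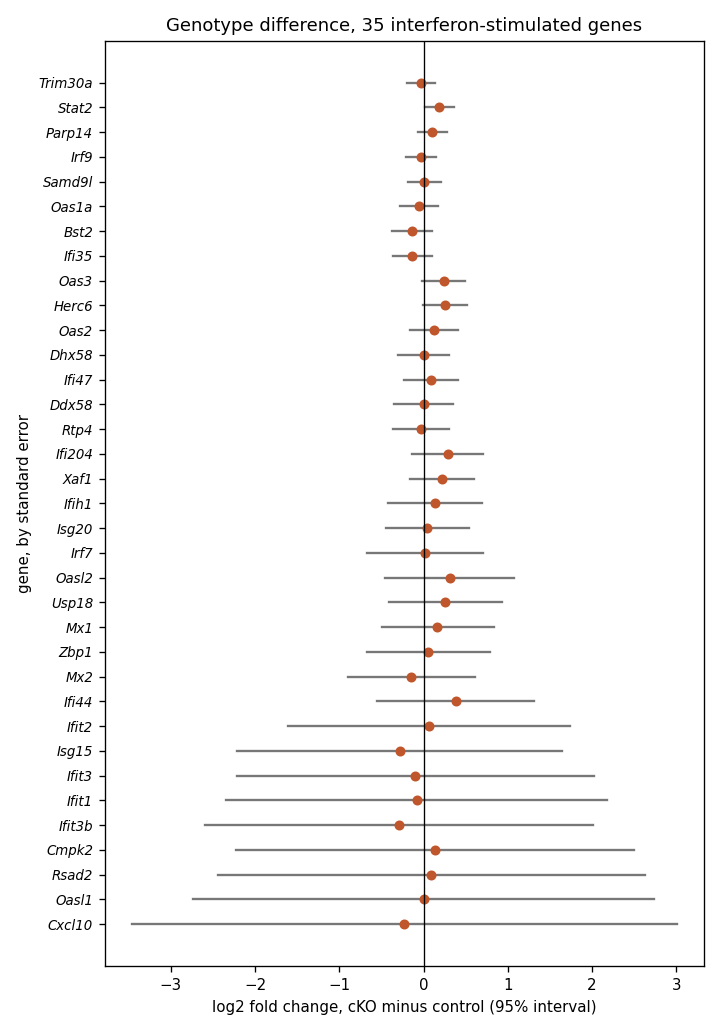
Log2 fold change (cKO minus control) with its 95% interval for the 35 members, ordered by standard error from the smallest at the top. The intervals widen from Trim30a to Cxcl10, and the interval of Stat2, 0.02 to 0.36, is the one that lies wholly to 1 side of 0 before adjustment.

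The standard error rests on the spread within the genotypes, of which the control spread that defined the classes is a part. Its rise over the classes is therefore built in and describes the precision only. The median standard error of the log2 fold change was 0.87 for the 9 genes with a control ratio of at least 4, 0.30 for the 7 between, and 0.12 for the 19 others, against 0.13 for all genes tested. The 95% intervals of all 9 of the widest genes reached beyond a 2-fold change on both sides, so changes of that size were not detectable for them here. Without control replicate 2, 9 members had an unadjusted p below 0.05, all higher in the cKO, against 15.6% of all genes in that fit, and the smallest adjusted p was 0.0718 (Ifi204, edgeR). That fit had 33 members above 0 and 2 below, while the fit without control replicate 1 had 10 above and 25 below and 0 at an unadjusted p below 0.05 (edgeR). In both, 0 members were called.

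Levels between genes were compared per length, as mean FPKM (fragments scaled to gene length and library size) over the 6 libraries. On this scale Bst2 was the most abundant member at 33.3 FPKM, followed by Parp14 at 18, Ifi204 at 17.6, Samd9l at 16.9, Trim30a at 14.8 and Oas1a at 12.3 FPKM. The lowest were Mx1 at 0.910, Mx2 at 0.430 and Ifi44 at 0.303 FPKM. The 9 genes with the widest control range lay between 1.72 (Ifit3b) and 6.75 FPKM (Isg15), below the most abundant members and above the least abundant.

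Upstream of the members, reads of the ligands were few and uneven. Ifnb1, the interferon beta gene, had 3, 64 and 3 reads in control replicates 1 to 3 and 15, 0 and 17 reads in cKO replicates 1 to 3. The 12 interferon alpha genes, whose near-identical sequences make the single genes uncertain, summed to 0, 63 and 0 reads in the controls and 23, 0 and 43 reads in the cKO. The 3 libraries with reads of both, control replicate 2, cKO replicate 1 and cKO replicate 3, are the 3 with a mean level of the members above 0. Exact Poisson 95% intervals, which cover counting error only, were 49.3 to 81.7 for the 64 reads, 0.619 to 8.77 for 3 reads and 0 to 3.69 for 0 reads. The order did not match fully, since cKO replicate 3 had the more ligand reads and cKO replicate 1 the higher level of members. Control replicates 1 and 3 had the same ligand reads, yet their mean levels of members were -0.65 and -0.08. The level in cKO replicate 2, with 0 reads of both, was -0.23, above that in control replicate 1. Whether the ligand reads account for the members' levels was not tested. Between genotypes Ifnb1 did not pass (log2 fold change -1.0 ± 1.39 SE; edgeR, adjusted p = 0.771), and it was the only ligand with enough reads for the test.

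The receptors did not follow the members' order. Ifnar1 had 253.0, 258.7 and 249.9 CPM in the controls and 236.4, 222.2 and 242.3 CPM in the cKO, with no overlap, but did not pass (-0.12 ± 0.06 SE; edgeR, adjusted p = 0.301). Ifnar2 had 0.04 ± 0.06 (SE; edgeR, adjusted p = 0.816). Of 6 receptor genes, including those for interferon gamma, Ifngr1 (edgeR, adjusted p = 0.147) and Ifngr2 (edgeR, adjusted p = 0.234), 0 were called by edgeR, with 2 at an unadjusted p below 0.05, against 17.2% of all genes. In the JAK-STAT list 0 of 12 were called and 1 had an unadjusted p below 0.05 (edgeR), against the same share. The genes of that list with the smallest p were the phosphatases Ptpn2 and Ptpn6, with adjusted p-values of 0.282 and 0.323 (edgeR).

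Other interferon regulatory factors gave 0 calls among 6 tested by edgeR, with 3 at an unadjusted p below 0.05, against 17.2% of all genes. Irf8, a lineage factor of macrophages, went from 107.2 ± 6.67 to 126.6 ± 7.87 CPM (SD, n = 3; edgeR with Benjamini-Hochberg adjustment, adjusted p = 0.0888). It was called in 5 of the 14 alternatives, among them DESeq2 (adjusted p = 0.0305) and limma-voom (adjusted p = 0.0483). Irf5 and Irf1 had log2 fold changes of 0.18 ± 0.07 and 0.13 ± 0.06 (SE; edgeR with Benjamini-Hochberg adjustment, adjusted p = 0.204 and 0.259), and Irf5 was called in 1 alternative. Among 19 other sensors and adaptors 1 rose, against 1.36% of all genes: Samhd1, a nucleotide phosphohydrolase that limits reverse transcription, from 346.0 ± 11.1 to 412.9 ± 4.56 CPM (SD, n = 3; log2 fold change 0.26 ± 0.05 SE; edgeR, adjusted p = 0.0328). That call was lost in 5 of the 6 fits that left out a library, with adjusted p up to 0.181 without cKO replicate 1. Ikbke, a kinase of the interferon-inducing pathway named here after its values were seen, had 0.31 ± 0.08 (SE; edgeR, adjusted p = 0.0544) and was called in 7 of the 14 alternatives, with DESeq2 at an adjusted p of 0.0119.

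A further 53 interferon-stimulated genes outside the set gave 2 lower and 0 higher calls, against 1.06% and 1.36% of all genes. These were Ifi27, from 56.3 ± 1.6 to 42.9 ± 4.28 CPM, and Ifitm2, a membrane protein that blocks viral entry, from 90.9 ± 9.19 to 70.5 ± 3.67 CPM (SD, n = 3; edgeR with Benjamini-Hochberg adjustment, adjusted p = 0.0244 and 0.0302). Their calls were lost in 4 of 6 leave-one-out fits each, with adjusted p up to 0.146 and 0.201 without cKO replicate 1, and also when the trend over gene length was removed. Of the 53, 26 were highest in control replicate 2 and 27 lowest in control replicate 1, against 14.2% and 17.9% of all genes. In the list of interferon gamma targets and GTPases 0 of 26 were called by edgeR, 4 had an unadjusted p below 0.05, and 13 were highest in control replicate 2 and 15 lowest in control replicate 1, beside the same shares. The smallest p-values there belonged to Wars and Tap2 (edgeR, adjusted p = 0.179 and 0.196).

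Markers of other cells were set beside the members' levels. Plasmacytoid dendritic cells are strong producers of interferon alpha, and their 7 listed markers found in the files summed to 183 to 191 CPM in the controls and 208 to 228 CPM in the cKO. Nearly all of that was Tcf4 and Irf8, which other cells express too. The other 5 markers summed to 0.769, 1.36 and 1.81 CPM in control replicates 1 to 3 and to 1.57, 2.13 and 1.39 CPM in cKO replicates 1 to 3, lowest in control replicate 1 and highest in cKO replicate 2. Their defining marker Siglech was at 0 to 0.139 CPM. Neutrophil markers summed to 20.5 to 25.7 CPM in the controls and 47 to 60.8 CPM in the cKO. Of those tested by edgeR, 4 of 6 were called higher, against 1.36% of all genes. Mpo went the other way without passing, from 0.842 ± 0.422 to 0.479 ± 0.169 CPM (SD, n = 3; edgeR, adjusted p = 0.438). Elane, with too few reads for the test, was also lower, at 0.302 and 0.0847 CPM on average. The monocyte marker Ccr2 rose from 3.69 ± 0.272 to 14.1 ± 2.83 CPM and the B cell marker Ighm from 15.4 ± 1.29 to 25.4 ± 4.04 CPM (SD, n = 3; edgeR with Benjamini-Hochberg adjustment, adjusted p = 7.9e-05 and 0.0103). Their part in the members' levels was not tested. Control replicate 1 had relatively more reads of short genes, 0.11 on the log2 scale among the shortest genes. After that trend over length was removed, the distance between the extreme control libraries was 1.21 on the log2 scale, against 1.18 before. The members' median length, 4378 bases, was close to the 4449 bases of all genes tested. Removing the trend could therefore move their mean level little. The part of gene length in the members' levels was not tested.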

How the data were processed

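The deposited files give, per gene and per the file headers, raw read counts and FPKM made by the authors. Polyadenylated RNA was used with a protocol that marks the strand, per the labels' protocols. The submitters' processing notes name cutadapt 1.9 and mm10. The sources used here name no aligner, counting program or strand setting. The 12 members that overlap another row are therefore uncertain, as are members with near-identical copies. Counts were tested with edgeR 4.0.16 in R 4.3.3 (filterByExpr at a minimum of 10 reads and 15 in total, TMM scaling, robust quasi-likelihood test, 3 libraries per genotype), with Benjamini-Hochberg adjustment over all 16843 genes and a threshold of 0.05. Standard errors come from the fold change and its F value. Log2 CPM for the set level used a prior count of 2. Alternatives used DESeq2 1.42.0 and limma 3.58.1. The edgeR fit was tested on simulated data. The 35 members and all lists were chosen with earlier results of these data known. Per-library values are given for the 12 members with the smallest p-values and for Irf7, Irf9, Isg15 and Cxcl10; other genes are marked where chosen later. Ifng and 9 members' promoters were not analysed here.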

Additional observations from a re-analysis of the deposited data

How the results depend on the processing

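Members called were 0 higher and 0 lower in all 14 alternatives, and the lowest adjusted p of any member was 0.0718. The sign of the fold change differed in at least 1 alternative for 23 members, none of which was called. Genes called between genotypes numbered 407, but 800 with DESeq2, 673 with the replicate block, 743 with the replicate block and the length trend removed, and 59 to 624 when a library was left out; the cause was not tested. Same-numbered libraries correlated at -0.077, 0.05 and 0.262 over 9454 genes, and differently numbered ones at -0.222 to 0.147. These values do not settle if the numbers pair the libraries, and the main fit did not pair them. The replicate block changed no member's call. The members' median log2 fold change was 0.14 with the replicate block and -0.10 to 0.37 when a library was left out. The difference in mean level of the set was 0.14 to 0.18 over the other settings, of which removal of the length trend was chosen after seeing the data, as was leaving out each library (-0.16 to 0.43). With 3 libraries per genotype, differences in the widest genes are limited by the spread between libraries.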

Other observations

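Besides the 9 members, 17 genes were highest in control replicate 2, lowest in control replicate 1 and at least 4-fold apart between them. The ones named here were chosen after their values were seen. The chemokine gene Ccl5 was at 0.557, 5.14 and 0.645 CPM in the controls and 1.83, 0.465 and 2.51 CPM in the cKO. Nos2, the inducible nitric oxide synthase, was at 0.269, 2.13 and 0.872 CPM and then 1.69, 0.340 and 1.67 CPM. In both, as in Cxcl10, cKO replicate 2 was the low library of its genotype, which held for 8 of the 17 and not for the other 9. The guanylate-binding protein gene Gbp5 was at 3.13, 13 and 4.20 CPM against 7.64, 4.30 and 7.54 CPM, and the chemokine gene Ccl4 at 1.42, 5.72 and 1.52 CPM against 2.98, 1.09 and 2.91 CPM. None of these 4 genes was called between the genotypes by edgeR. The same 17 include pseudogenes and predicted genes, such as Rps26-ps1 with 2.38, 21.1 and 8.94 CPM in the controls and 6.11, 9.31 and 4.01 CPM in the cKO, where cKO replicate 2 was the highest of its genotype.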
